A study of Mus musculus with 24 samples.

Results

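The collagen genes are the 44 genes whose annotated symbol has the form Col, a number, a, and a number, measured in epididymal white fat among 19938 named genes. They were taken from probe sets annotated with 1 symbol, and a gene with more than 1 is given by its brightest probe set on average over the 24 arrays. The symbol rule found 46 probe sets, since Col6a5 and Col6a6 had 2 each. By collagen type, 11 were fibrillar, 6 were chains of type IV, the collagen of basement membranes, and 27 belonged to other types, among them the type VI chains. All mice were wild-type C57Bl/6 males, labelled as 11 weeks of age and fed for 11 weeks. The 4 groups of 6 mice were conventional mice fed menhaden fish oil, conventional mice fed lard, germ-free mice fed menhaden fish oil and germ-free mice fed lard. Both diets gave 45% of energy as fat and had equal calories, so no group was on low-fat chow, and all mice were fasted for 4 h before the tissue was taken. Conventional mice carry a normal microbiota and germ-free mice are raised without microbes.

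Collagens are triple helices of 3 chains each, and a chain that cannot find its partners is degraded in the endoplasmic reticulum. The fibrillar collagens I, III and V form the fibres of connective tissue, with type V helping to set fibre diameter. Type IV forms the network of the basement membrane that surrounds every adipocyte and vessel, and type VI forms beaded filaments next to it that are prominent in fat. Collagens XII and XIV sit on the surface of fibrils, type VIII forms short-chain networks, and types XV and XVIII lie at the border of the basement membrane. In fat, fibroblasts and progenitor cells make most of the fibrillar collagen, and adipocytes and vascular cells also make types IV and VI.

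Each mouse gave 1 one-colour array, and the values are log2 signals, so a difference of 1 is a doubling. The p-values below measure the spread between mice. The array medians lay between 7.09 and 7.20, and arrays of 1 group correlated at 0.979 to 0.995. All 10 adipocyte markers were above the 40th percentile of gene means, which was 6.98 log2, and 0 of 10 measured epididymis markers were. Of the collagen genes 33 were above that level, 9 fibrillar, 4 of type IV and 20 of other types. Several marker lists moved with the groups. The mean of 9 macrophage markers ran from 9.84 to 10.48 with fish oil and from 10.57 to 11.45 with lard when mice were conventional, and from 10.17 to 10.78 and from 11.01 to 11.61 when they were germ-free. The mean of 10 adipocyte markers was lower with lard, 12.11 to 12.60 against 12.75 to 12.97 in conventional mice and 12.25 to 12.60 against 12.64 to 12.75 in germ-free mice. The average of 22 liver transcripts ran from 8.03 to 9.34 where germ-free mice ate fish oil, and from 6.31 to 8.07 elsewhere. Among germ-free mice on lard, the average of intestinal epithelium transcripts reached 9.54 (mouse 4), 6.75 (mouse 5) and 6.67 (mouse 2), and all other mice lay between 5.85 and 6.33. The macrophage average of lard-fed conventional mice 5 and 6 was 11.43 and 11.45, and that of mice 1 to 4 lay between 10.57 and 10.89. The part of these cells in the collagen values was not tested, and in whole tissue fewer cells of a type and less RNA per cell cannot be told apart.

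Diet was compared first, within each bacterial status. Since the series has no other diet, a gene higher with lard is equally lower with fish oil. Rose and fell below give the sign of lard minus fish oil and do not say which fat moved a gene. With lard, the chains of the main interstitial collagens were higher than with fish oil whether or not the mice carried microbes. In conventional mice 16 of 44 collagen genes were higher and 2 lower with lard at a limma adjusted p under 0.05, against 15.4% of all genes higher and 15.6% lower (31% together). In germ-free mice 14 were higher and 5 lower, against 20.4% and 27.1% of all genes (47.5% together). Of these, 13 were higher in both comparisons, 1 was lower in both and 0 moved in opposite directions. Over all tested genes, 2226 were higher in both, 1964 lower in both and 96 opposite. At least 1.5-fold changes were seen for 9 collagen genes in conventional mice, against 8.16% of all genes, and for 10 in germ-free mice, against 9.96%. The diet groups did not overlap for 5 higher and 0 lower collagen genes in conventional mice, against 8.01% and 6.62% of all genes, and for 12 higher and 1 lower in germ-free mice, against 13.4% and 11.1%. The median collagen gene changed little, by 0.03 log2 in conventional and -0.07 in germ-free mice, against -0.04 and -0.08 for all genes. Of the 33 collagen genes above the 40th percentile, 16 were higher and 1 lower in conventional mice. The shares of all genes above it were 22.5% and 21%. In germ-free mice 14 of the 33 were higher and 4 lower, against 31% and 26.2%. The lower calls in germ-free mice depend on the scaling. After the arrays were centred on their medians the counts were 15 higher and 0 lower, against 24.1% and 16.6% of all genes. After repeated quantile normalization they were 12 higher and 1 lower, against 20.1% and 20.1% of all genes.

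**Figure D1:**
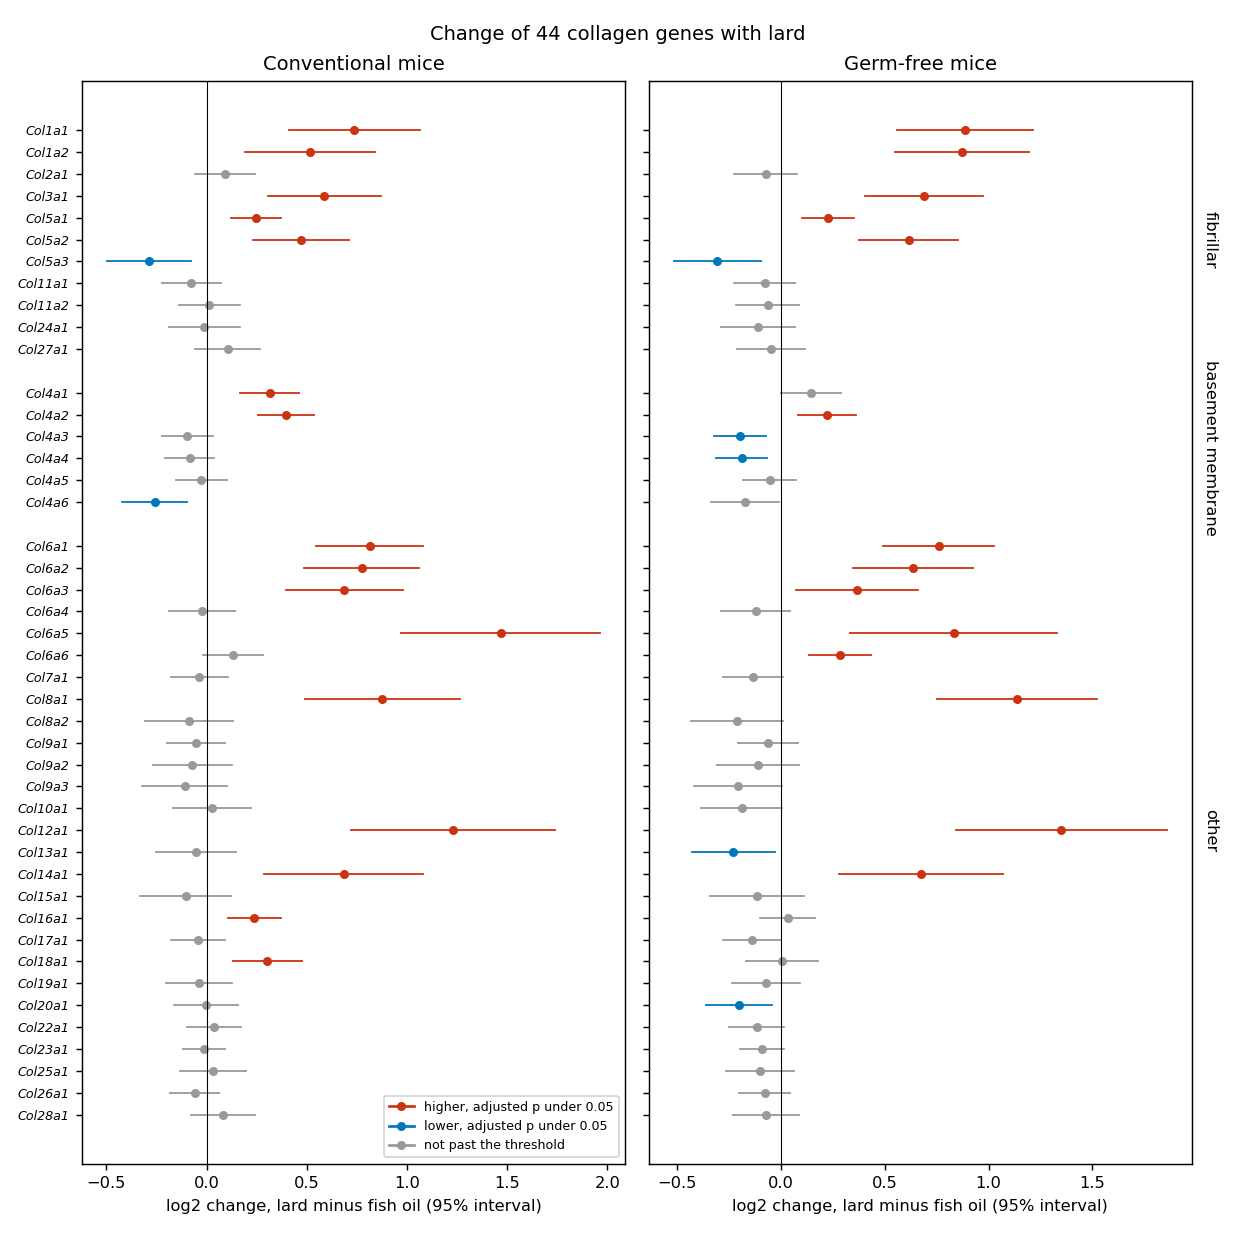
Log2 change with lard against fish oil of the 44 collagen genes, in conventional mice on the left and germ-free mice on the right, grouped by type. Points are differences of group means (n = 6 each) and lines are 95% confidence intervals from limma. Red marks genes higher and blue genes lower with lard at an adjusted p under 0.05: 16 and 2 in conventional mice, 14 and 5 in germ-free mice. The horizontal ranges differ between panels, and the highest points are Col6a5 and Col12a1 on the left and Col12a1 and Col8a1 on the right.

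Among fibrillar collagens, 5 of 11 were higher with lard and 1 was lower in conventional mice, and the counts were the same in germ-free mice. The risers were both chains of type I, the single chain of type III and the alpha 1 and alpha 2 chains of type V. Because these chains moved together, the 250 bases before the start of transcription are given for the 2 of the type I and III genes that have a RefSeq promoter entry (GRCm38.p6). Capitals mark a CCAAT box and GC boxes (GGGCGG or its complement) in Col1a2, at chr6:4505368-4505617 on the plus strand. In Col3a1, at chr1:45311288-45311537 on the plus strand, they mark the letters TATAAA.
Col1a2: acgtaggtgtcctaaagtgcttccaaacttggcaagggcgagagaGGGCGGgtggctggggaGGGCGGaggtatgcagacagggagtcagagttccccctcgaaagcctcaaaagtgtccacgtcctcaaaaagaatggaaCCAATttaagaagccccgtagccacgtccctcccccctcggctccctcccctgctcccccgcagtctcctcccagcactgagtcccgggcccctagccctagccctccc
Col3a1: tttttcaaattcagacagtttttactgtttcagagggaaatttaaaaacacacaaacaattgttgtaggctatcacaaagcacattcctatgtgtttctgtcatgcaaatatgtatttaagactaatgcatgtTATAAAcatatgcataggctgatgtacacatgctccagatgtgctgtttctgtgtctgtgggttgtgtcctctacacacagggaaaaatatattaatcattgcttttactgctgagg
The CCAAT box of Col1a2 began 109 bases before the start and its GC boxes 205 and 188 bases before it, and the TATAAA of Col3a1 began 117 bases before its start. Searched on both strands of the same 250 bases, CCAAT was in 33.8% of 32851 promoters, the GC box in 32.7% and TATAAA in 12.4%. Of the 35 collagen genes with a promoter entry, 13 held CCAAT, 21 the GC box and 5 TATAAA at any of their starts. The shares above are of single promoters, and a gene with several starts has more chances to hold a motif. The gene counts and those shares therefore differ in unit. Of the 9 genes with an entry that were higher with lard in both kinds of mice, 2, 6 and 1 held CCAAT, the GC box and TATAAA, counted by gene. These matches describe the sequence and are not evidence of binding.

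Col1a1, the alpha 1 chain of type I collagen, lay at 9.91, 10.13 and 10.31 log2 (lowest, median and highest of 6 mice) in fish oil-fed conventional mice and at 10.28, 10.65 and 11.51 in lard-fed conventional mice. In germ-free mice it lay at 10.12, 10.24 and 10.68 with fish oil and at 11.01, 11.15 and 11.46 with lard. The diet groups did not overlap in germ-free mice and met at 1 lard-fed mouse in conventional mice. The change was 0.74 ± 0.16 (SE, limma adjusted p = 0.000751) in conventional and 0.88 ± 0.16 (adjusted p = 8.22e-05) in germ-free mice, 1.67-fold and 1.85-fold.

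Col1a2, the partner chain, had 9.81, 9.90 and 10.05 with fish oil and 9.77, 10.27 and 11.03 with lard in conventional mice. In germ-free mice the values were 9.92, 10.02 and 10.42 against 10.70, 10.95 and 11.29. Germ-free groups were apart, while the lowest lard-fed conventional mouse lay under all fish oil-fed conventional mice. The changes were 0.52 ± 0.15 (limma adjusted p = 0.0122) and 0.87 ± 0.15 (adjusted p = 8.22e-05). Col3a1, which forms the homotrimer of type III collagen in fine reticular fibres, changed by 0.59 ± 0.14 (adjusted p = 0.00163) and 0.69 ± 0.14 (adjusted p = 0.000248). It lay at 9.99, 10.24 and 10.37 against 10.24, 10.75 and 11.30 in conventional mice, and at 10.13, 10.30 and 10.63 against 10.74, 11.01 and 11.40 in germ-free mice, without overlap in the latter.

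The type V chains, which co-assemble with type I fibrils, split. Col5a2 was at 7.76, 7.94 and 8.14 with fish oil and at 8.02, 8.35 and 8.77 with lard in conventional mice, and at 7.79, 7.92 and 8.04 against 8.27, 8.52 and 8.95 in germ-free mice. It rose by 0.47 ± 0.12 (limma adjusted p = 0.00255) and 0.61 ± 0.12 (adjusted p = 0.000145). Col5a1 rose less, by 0.25 ± 0.06 and 0.23 ± 0.06 (adjusted p = 0.00223 and 0.00327), but so evenly that lard-fed and fish oil-fed mice did not overlap in either kind of mouse. Its lard-fed conventional mice spanned only 8.62 to 8.69, above the fish oil-fed mice at 8.25 to 8.61, and its lard-fed germ-free mice spanned 8.69 to 8.79, above 8.33 to 8.68. Col5a3, the third chain of type V, went the other way. It lay at 8.75, 9.15 and 9.30 with fish oil and at 8.60, 8.75 and 8.98 with lard in conventional mice, and at 8.74, 8.86 and 9.20 against 8.46, 8.59 and 8.80 in germ-free mice. It fell by 0.29 ± 0.10 (adjusted p = 0.0317) and by 0.31 ± 0.10 (adjusted p = 0.0158), with overlapping groups. Both calls are fragile: in conventional mice the call was lost without fish oil-fed mouse 1, 2, 3 or 4 or lard-fed mouse 1, 3, 5 or 6 (lowest change -0.29, highest -0.24), and in germ-free mice with centred arrays (-0.24, adjusted p = 0.0536), when lard-fed mice 2, 4 and 5 were left out (-0.22, adjusted p = 0.212) and with the liver covariate (-0.44, adjusted p = 0.0536). The remaining 5 fibrillar genes, Col2a1, Col11a1, Col11a2, Col24a1 and Col27a1, which are known mainly from cartilage and other tissues, did not pass the threshold in either diet comparison.

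**Figure D2:**
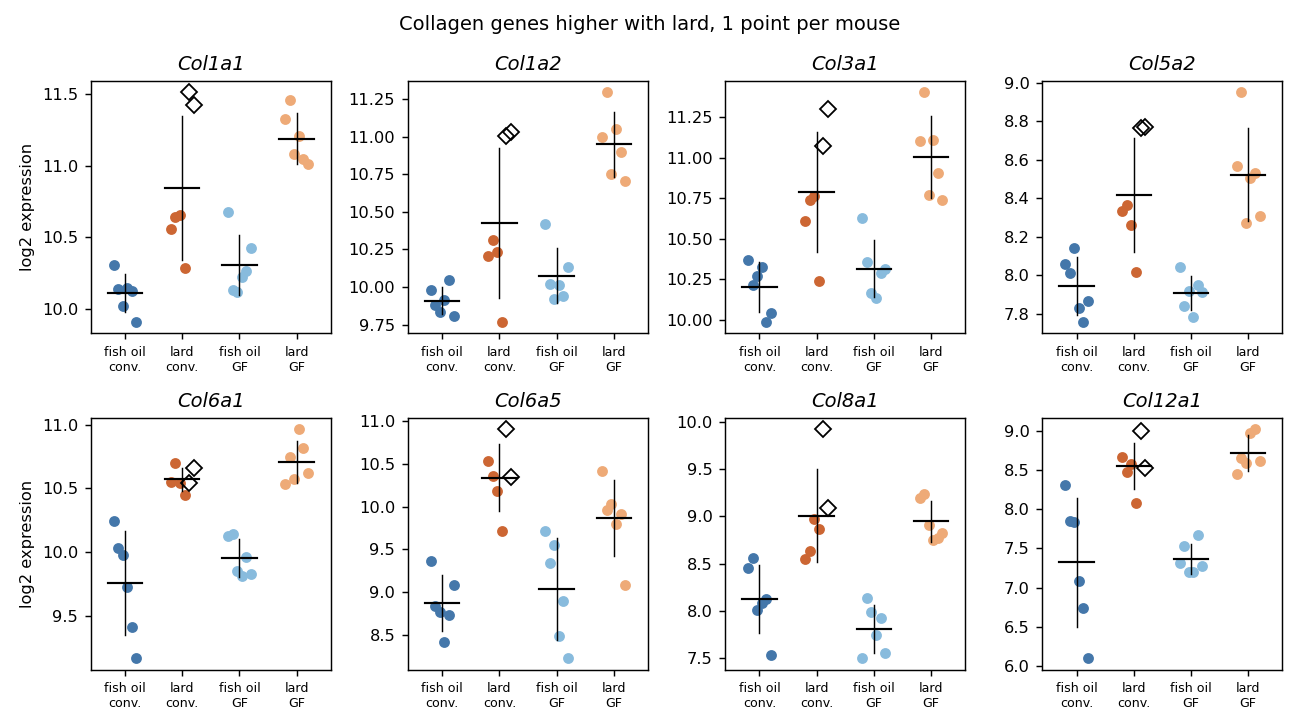
Log2 expression of 8 collagen genes, 1 point per mouse, in fish oil-fed and lard-fed conventional (conv.) and germ-free (GF) mice. Horizontal lines are group means and vertical lines 1 SD (n = 6), axes differ between genes and do not start at 0, and open diamonds are lard-fed conventional mice 5 and 6. These 2 mice lie well above the other 4 lard-fed conventional mice in Col1a1 and Col1a2 and among them in Col6a1.

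Type VI collagen is built from the alpha 1 and alpha 2 chains with alpha 3 or one of its relatives, and a cleaved end of alpha 3 is the adipose signal endotrophin. All of Col6a1, Col6a2 and Col6a3 rose with lard in both kinds of mice. The 250 bases before the starts of Col6a1 (chr10:76726045-76726294, minus strand) and of 1 of the starts of Col6a2 (chr10:76623631-76623880, minus strand) are given because these neighbours moved together. Capitals mark an AP-1 site (TGANTCA) in Col6a1 and a GC box in Col6a2.
Col6a1: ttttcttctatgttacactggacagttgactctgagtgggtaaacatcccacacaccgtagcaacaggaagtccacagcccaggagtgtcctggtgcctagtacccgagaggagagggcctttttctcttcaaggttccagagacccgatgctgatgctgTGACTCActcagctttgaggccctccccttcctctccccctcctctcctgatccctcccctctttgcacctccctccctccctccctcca
Col6a2: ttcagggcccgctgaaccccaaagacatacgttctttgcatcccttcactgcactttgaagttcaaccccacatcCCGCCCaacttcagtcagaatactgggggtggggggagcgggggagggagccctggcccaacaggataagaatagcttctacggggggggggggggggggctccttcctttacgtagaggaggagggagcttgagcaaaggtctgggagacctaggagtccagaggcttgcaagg
The AP-1 site began 90 bases before the start of Col6a1. The same 7 letters were in 6.75% of 32851 single promoters and, counted by gene over any start, in 1 of the 35 collagen genes with an entry. The GC box shown for Col6a2 began 175 bases before this start. The 250 bases before the other Col6a2 start in the table, not printed, held 3 GC boxes, which began 67, 15 and 11 bases before it, and the promoter of Col6a3 held 0 of the 4 motifs.

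Col6a1 lay at 9.17, 9.85 and 10.24 with fish oil and at 10.44, 10.55 and 10.70 with lard in conventional mice, without overlap. It lay at 9.81, 9.90 and 10.14 against 10.53, 10.68 and 10.96 in germ-free mice, again without overlap. The changes were 0.81 ± 0.13 (limma adjusted p = 2.87e-05) and 0.76 ± 0.13 (adjusted p = 4.65e-05), 1.76-fold and 1.69-fold. Col6a2 behaved alike, with no overlap in either kind of mouse: 9.42, 10.28 and 10.55 against 10.78, 10.93 and 11.06 in conventional mice, and 10.08, 10.24 and 10.51 against 10.71, 10.97 and 11.03 in germ-free mice. It rose by 0.77 ± 0.14 (adjusted p = 0.000121) and 0.64 ± 0.14 (adjusted p = 0.000648). Col6a3 had 9.15, 9.68 and 10.14 against 10.05, 10.31 and 10.57 in conventional mice, where the groups overlapped, and 9.57, 9.81 and 9.99 against 10.03, 10.16 and 10.31 in germ-free mice, where they did not. Its changes were 0.69 ± 0.14 (adjusted p = 0.000489) and 0.36 ± 0.14 (adjusted p = 0.0359). The germ-free call of Col6a3 was lost without fish oil-fed mouse 3, 4 or 6 or lard-fed mouse 1, 2 or 5, with changes from 0.32 to 0.36.

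The type VI genes spread widely in fish oil-fed conventional mice, and more than 1 marker list differed between the same mice. Mouse 6 of that group had the lowest Col6a1, 9.17, and the lowest mean of 8 fibroblast and progenitor markers, 9.12, and mouse 1 had the highest of both, 10.24 and 9.77. Mouse 1 also had the lowest adipocyte marker mean of the group, 12.75, and the highest macrophage marker mean, 10.48. Mouse 6 had the highest adipocyte marker mean, 12.97, and the highest liver transcript mean, 8.07. The part of any of these lists in the type VI values was not tested. Over all mice of the group the fibroblast and progenitor marker mean had a median of 9.52, against 9.64 in lard-fed conventional mice. Of the 8 fibroblast and progenitor markers 1 was higher with lard in conventional mice and 3 in germ-free mice, against 15.4% and 20.4% of all genes. In both comparisons 0 were lower, against 15.6% and 27.1%.

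Col6a5, an alternative to alpha 3, had the largest collagen change in conventional mice. It lay at 8.42, 8.81 and 9.37 with fish oil and at 9.71, 10.35 and 10.91 with lard, without overlap, a change of 1.47 ± 0.24 (limma adjusted p = 4.06e-05) or 2.77-fold. In germ-free mice the groups overlapped, 8.23, 9.12 and 9.72 against 9.08, 9.94 and 10.42, and the change was 0.83 ± 0.24 (adjusted p = 0.00644). The difference between these changes, 0.64 ± 0.34, did not pass (adjusted p = 0.272). The second probe set of Col6a5 changed by 0.80 ± 0.20 (adjusted p = 0.00441, over all probe sets) in conventional and by 0.36 ± 0.20 (adjusted p = 0.144) in germ-free mice. Col6a6, another alternative chain, was higher with lard in germ-free mice only by the probe set used, at 8.49, 8.76 and 8.87 against 8.90, 9.04 and 9.11, a change of 0.28 ± 0.07 (adjusted p = 0.00228). Its second probe set gave 0.21 ± 0.11 (adjusted p = 0.114) there. In conventional mice the change of Col6a6 was 0.13 ± 0.07 (adjusted p = 0.175). Col6a4, under the low level over all arrays, changed by -0.02 and -0.12 and passed in neither.

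The fibril-associated and short-chain collagens held some of the largest changes. Col12a1, which decorates type I fibrils, lay at 6.10, 7.47 and 8.31 with fish oil and at 8.08, 8.55 and 9.00 with lard in conventional mice. In germ-free mice it was at 7.20, 7.30 and 7.67 against 8.45, 8.63 and 9.02. The germ-free groups were far apart, while in conventional mice 1 fish oil-fed mouse, mouse 1, lay above the lowest lard-fed mouse. It rose by 1.23 ± 0.24 (limma adjusted p = 0.000369) and 1.35 ± 0.24 (adjusted p = 0.0001), 2.35-fold and 2.55-fold. Col8a1, a short-chain collagen of vessel walls and other tissues, was at 7.53, 8.10 and 8.56 against 8.55, 8.92 and 9.92 in conventional mice and at 7.50, 7.84 and 8.13 against 8.75, 8.86 and 9.23 in germ-free mice. The conventional groups touched at 1 mouse and the germ-free groups did not overlap. Its changes were 0.88 ± 0.18 (adjusted p = 0.000653) and 1.14 ± 0.18 (adjusted p = 2.99e-05). Its partner chain Col8a2, under the low level, changed by -0.09 and -0.21 and did not pass.

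Col14a1, a relative of Col12a1, was at 8.43, 9.03 and 9.78 with fish oil and at 9.46, 9.70 and 10.45 with lard in conventional mice, with overlap, and at 8.93, 9.10 and 9.52 against 9.55, 9.80 and 10.20 in germ-free mice, without. It rose by 0.68 ± 0.19 (limma adjusted p = 0.00708) and 0.67 ± 0.19 (adjusted p = 0.00569). Fish oil-fed conventional mouse 6, the lowest for both Col12a1 and Col14a1, also had the lowest mesothelium marker mean of its group, 8.36 against a group median of 9.27. Over both diets mesothelium markers ran opposite to these collagens, with 8 of 10 lower with lard in conventional and 6 of 10 in germ-free mice. The shares of all genes lower with lard were 15.6% and 27.1%.

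The collagens of the basement membrane border gave a mixed picture. Col18a1, the source of endostatin, was at 7.95, 8.32 and 8.53 with fish oil and at 8.46, 8.61 and 8.73 with lard in conventional mice. It rose there by 0.30 ± 0.08 (limma adjusted p = 0.00637), and in germ-free mice it changed by 0.01 ± 0.08 (adjusted p = 0.959), at 8.34, 8.49 and 8.80 against 8.40, 8.52 and 8.60. Col16a1, found near fibrils and basement membranes, was at 7.39, 7.54 and 7.69 against 7.64, 7.77 and 7.87 in conventional mice, a change of 0.24 ± 0.06 (adjusted p = 0.00478), and changed by 0.03 ± 0.06 in germ-free mice. The tests of the difference between the 2 kinds of mice gave 0.30 ± 0.12 for Col18a1 (adjusted p = 0.128) and 0.21 ± 0.09 for Col16a1 (adjusted p = 0.163), so neither is shown to depend on bacterial status. Col15a1, the other member of the endostatin family, did not pass. It was at 11.04, 11.47 and 11.76 with fish oil and at 11.27, 11.30 and 11.39 with lard in conventional mice, with a change of -0.11 and a 95% interval from -0.33 to 0.12. In germ-free mice the change was -0.12, with an interval from -0.34 to 0.11.

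Of the 6 type IV genes, the common pair Col4a1 and Col4a2 rose with lard in conventional mice. Col4a2 lay at 9.53, 9.85 and 9.89 with fish oil and at 10.12, 10.15 and 10.24 with lard there, without overlap, and rose by 0.40 ± 0.07 (limma adjusted p = 6.64e-05). In germ-free mice it lay at 9.80, 9.88 and 9.997 against 9.96, 10.07 and 10.29 and rose by 0.22 ± 0.07 (adjusted p = 0.00994). That germ-free call of Col4a2 was lost after repeated quantile normalization (0.15, adjusted p = 0.0771) and with the liver covariate (0.08, adjusted p = 0.563). Col4a1 lay at 9.55, 9.67 and 9.83 against 9.82, 10.03 and 10.07 in conventional mice, a rise of 0.31 ± 0.07 (adjusted p = 0.00113) with the groups meeting at lard-fed mouse 4. In germ-free mice Col4a1 was at 9.71, 9.92 and 10.11 against 9.92, 9.999 and 10.17, a change of 0.14 ± 0.07 that did not pass (adjusted p = 0.0911). It passed there when arrays were centred (0.21, adjusted p = 0.0247) and without fish oil-fed germ-free mouse 6 (0.19, adjusted p = 0.0306). The starts of Col4a1 and Col4a2 lie 21 bases apart on opposite strands in the same RefSeq table.

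The other type IV chains, which form networks in kidney, eye and smooth muscle, did not follow this pair. Col4a6 was at 6.80, 6.94 and 7.04 with fish oil and at 6.34, 6.72 and 6.87 with lard in conventional mice and fell by 0.26 ± 0.08 (limma adjusted p = 0.0125). That call held with centred arrays and after repeated quantile normalization. In germ-free mice Col4a6 changed by -0.17 ± 0.08 (adjusted p = 0.0702). Col4a3 and Col4a4 passed only in germ-free mice, with changes of -0.20 ± 0.06 (adjusted p = 0.0103) and -0.19 ± 0.06 (adjusted p = 0.011). Both calls were lost when arrays were centred (adjusted p = 0.0574 and 0.0739). Col4a5 changed by -0.03 and -0.05 and did not pass. Col4a3 and Col4a6 lie under the low level. In germ-free mice, where Col4a3 passed, the median change of all genes under it was -0.13, with 28.4% called lower. In conventional mice, where Col4a6 passed, that median was -0.05, with 7.37% called lower.

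The last 2 lower calls also went with the scaling. Col13a1, a membrane-spanning collagen, changed by -0.23 ± 0.10 (limma adjusted p = 0.0497) and Col20a1 by -0.20 ± 0.08 (adjusted p = 0.0338) in germ-free mice, and with centred arrays neither passed (adjusted p = 0.136 and 0.125). The call of Col13a1 was lost in 24 of 34 alternative fits and that of Col20a1 in 9 of 34. Col20a1 was lost without fish oil-fed germ-free mouse 3, 4 or 6 or lard-fed germ-free mouse 1, 2 or 5. In conventional mice the 26 collagen genes that did not pass changed by -0.11 to 0.13. In germ-free mice the 25 that did not pass changed by -0.21 to 0.14.

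Several calls in conventional mice were lost when a pair of lard-fed mice was left out together. Without lard-fed conventional mice 5 and 6, the counts in conventional mice were 14 higher and 0 lower, against 12.2% and 10.1% of all genes. Col1a2 was then 0.22 (limma adjusted p = 0.184) and Col14a1 0.52 (adjusted p = 0.0568), and Col4a6 and Col5a3 also no longer passed (adjusted p = 0.0621 and 0.145). Col1a1 stayed past the threshold at 0.43 (adjusted p = 0.00574), Col3a1 at 0.39 (adjusted p = 0.0268) and Col5a2 at 0.30 (adjusted p = 0.0441), while Col6a1 was 0.80 (adjusted p = 0.000347) against 0.81 with all mice.

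In germ-free mice, leaving out lard-fed mice 2, 4 and 5 gave 11 higher and 0 lower, against 14.5% and 12% of all genes. Col6a3, Col6a5 and Col14a1 then had an adjusted p (limma) of 0.161, 0.0576 and 0.0805, with changes of 0.35, 0.81 and 0.56. With the liver average added to the model as a covariate, 5 were higher and 8 lower, against 13% and 16.4% of all genes. The 5 higher were Col1a1, Col1a2, Col3a1, Col5a2 and Col6a1. Col12a1 was then 0.97 (adjusted p = 0.0705), Col8a1 0.65 (adjusted p = 0.0879) and Col6a2 0.32 (adjusted p = 0.258). The liver transcript mean did not overlap between the diet groups of germ-free mice, 8.03 to 9.34 against 6.31 to 7.75, so in this fit diet and liver transcripts can hardly be told apart.

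Collagen synthesis needs enzymes of the endoplasmic reticulum, enzymes that trim the propeptides outside the cell, crosslinking and removal, and genes of these steps were set beside the collagens. Of 22 biosynthesis genes, 12 were higher with lard and 1 lower in conventional mice, and the same counts held in germ-free mice. The shares of all genes were 15.4% higher and 15.6% lower in conventional and 20.4% and 27.1% in germ-free mice, and the counts of the lists that follow stand against the same shares. Among genes above the 40th percentile of gene means, the shares were 22.5% and 21% in conventional and 31% and 26.2% in germ-free mice. Plod1, a lysyl hydroxylase, rose by 0.66 ± 0.09 and 0.82 ± 0.09 (limma adjusted p = 4.85e-06 and 3.25e-07). Ppib, the prolyl isomerase cyclophilin B, rose by 0.59 and 0.45, and Colgalt1, which adds galactose to hydroxylysine, by 0.58 and 0.53. The collagen chaperone Serpinh1 rose by 0.38 ± 0.12 in conventional mice (adjusted p = 0.0212) and changed by 0.09 ± 0.12 in germ-free mice. The prolyl 4-hydroxylase chains P4ha1, P4ha2 and P4ha3 passed in neither comparison, with changes from -0.25 to 0.13. Without lard-fed conventional mice 5 and 6 the conventional count was 7 higher and 1 lower, against 12.2% and 10.1% of all genes, and with the liver covariate the germ-free count was 6 higher and 1 lower, against 13% and 16.4%.

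Of 7 procollagen processing genes, 3 were higher and 1 lower in conventional and 4 higher and 2 lower in germ-free mice. Pcolce2 and Pcolce, enhancers of the C-proteinase, rose by 1.08 and 0.78 in conventional mice and by 1.16 and 0.76 in germ-free mice. Bmp1, the C-proteinase itself, rose by 0.55 ± 0.08 and 0.32 ± 0.08 (limma adjusted p = 1.46e-05 and 0.00235). Of 6 crosslinking genes 3 were higher and 0 lower in both comparisons, namely Lox, Loxl3 and Tgm2. Lox, the lysyl oxidase, rose by 0.85 ± 0.11 (adjusted p = 4.14e-06) and 1.195 ± 0.11 (adjusted p = 5.67e-08). Of 14 fibril regulators 5 were higher and 2 lower in conventional mice, and 7 higher and 2 lower in germ-free mice. Lum, lumican, rose by 1.13 and 1.32 and Bgn, biglycan, by 0.72 and 0.69, while Podn, podocan, fell by 0.90 and 0.54.

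Of 14 basement membrane partners 3 were higher and 3 lower in conventional mice and 5 higher and 4 lower in germ-free mice. Hspg2, perlecan, rose by 0.51 and 0.25 and Lamb3 by 0.50 and 0.51, and Lama4, the laminin chain of adipocyte and vessel membranes, fell by 0.45 and 0.33. With centred arrays the germ-free count was 5 higher and 1 lower, against 24.1% and 16.6% of all genes. Of 9 collagen receptors 3 were higher and 0 lower in conventional and 5 higher and 1 lower in germ-free mice. Mrc2, an endocytic receptor that takes up collagen, rose by 1.86 ± 0.14 and 2.15 ± 0.14 (limma adjusted p = 1.84e-09 and 3.51e-10). Lair1, a collagen receptor of leukocytes, rose by 1.14 and 1.33, beside the macrophage markers given above.

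Of 8 collagen-degrading enzymes 6 were higher and 0 lower in conventional and 4 higher and 0 lower in germ-free mice. Mmp2, a gelatinase, rose by 0.88 ± 0.19 and 1.56 ± 0.19 (limma adjusted p = 0.000884 and 1.12e-06). Ctsk, a collagen-cleaving cathepsin, rose by 1.37 ± 0.33 in conventional mice (adjusted p = 0.00224) and changed by 0.59 ± 0.33 in germ-free mice (adjusted p = 0.137). Without lard-fed conventional mice 5 and 6 the conventional count was 3 higher, against 12.2% of all genes. With the liver covariate the germ-free count was 1 higher, against 13%. Of 15 genes of TGF-beta signalling, the best known inducer of collagen genes, 5 were higher and 2 lower in conventional and 6 higher and 0 lower in germ-free mice. Tgfb1 rose by 0.86 ± 0.12 and 0.43 ± 0.12 (adjusted p = 6.75e-06 and 0.00512). Without mice 5 and 6 the conventional count was 2 higher and 2 lower, against 12.2% and 10.1% of all genes. With germ-free mice 2, 4 and 5 on lard left out the germ-free count was 2 higher and 0 lower, against 14.5% and 12%.

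**Figure D3:**
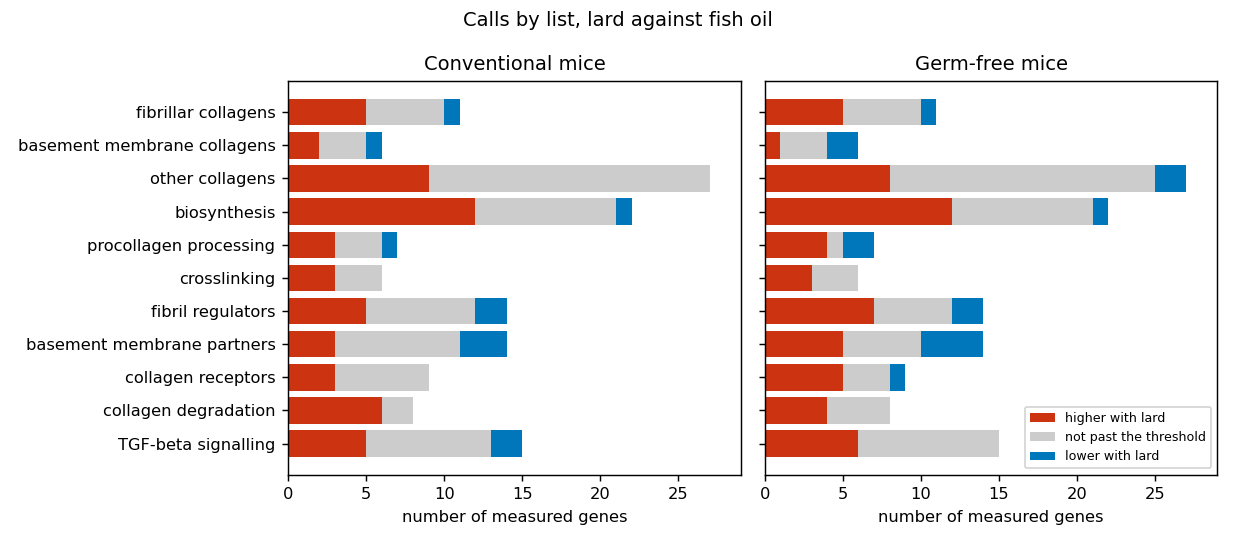
Number of genes higher with lard (red), lower with lard (blue) and not past the threshold (grey) in each collagen class and related list, in conventional mice (left) and germ-free mice (right). Biosynthesis genes show 12 higher and 1 lower of 22 in both panels, and basement membrane partners show 3 higher and 3 lower of 14 on the left.

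The second comparison set conventional against germ-free mice on a given diet. Colonies and cages were not given, so a difference of colony or housing cannot be told apart from bacterial status. In lard-fed mice 2 of 44 collagen genes were lower in conventional than in germ-free mice and 0 were higher, against 7.48% and 8.77% of all genes (16.3% together), and 0 changed at least 1.5-fold, against 1.47%. The lard-fed groups overlapped for every collagen gene, while 2.55% of all genes were higher and 1.6% lower in conventional mice without overlap. Col1a2 differed by -0.52 ± 0.15 (limma adjusted p = 0.0214), with lard-fed conventional mice at 9.77, 10.27 and 11.03 and germ-free mice at 10.70, 10.95 and 11.29. The groups overlapped through mice 5 and 6. Col6a6 differed by -0.25 ± 0.07 (adjusted p = 0.0157), at 8.57, 8.81 and 8.98 against 8.90, 9.04 and 9.11, and its second probe set by -0.03 ± 0.11 (adjusted p = 0.889). The call of Col1a2 was lost without lard-fed conventional mouse 1, 3 or 4 or lard-fed germ-free mouse 2, with changes from -0.48 to -0.39, and in a fit of only the lard-fed groups (adjusted p = 0.101). Both calls were lost when germ-free mice 2, 4 and 5 on lard were left out (adjusted p = 0.326 for Col1a2 and 0.139 for Col6a6), where 0.888% of all genes were called. The remaining 42 differed by -0.34 to 0.47 and did not pass.

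In fish oil-fed mice 0 collagen genes passed in limma, against 12.4% of all genes (7.15% higher and 5.21% lower in conventional mice). An unadjusted p under 0.05 was found for 4 of 44 collagen genes, against 26.3% of all genes. These groups too overlapped for every collagen gene, while 3.81% of all genes were higher and 3.22% lower in conventional mice without overlap. The lowest adjusted p was 0.0586, for Col4a1, which differed by -0.20 ± 0.07 between conventional mice at 9.55, 9.67 and 9.83 and germ-free mice at 9.71, 9.92 and 10.11. Col4a1 passed in 6 of 34 alternative fits of this comparison. The mean of 10 endothelium markers lay between 9.78 and 9.96 in these conventional mice and between 10.14 and 10.46 in these germ-free mice, without overlap, with 5 of the 10 lower and 0 higher in conventional mice, and its part in the type IV values was not tested. The test of whether the diet change differed with bacterial status called 0 collagen genes, against 7.2% of all genes (2.81% with a positive and 4.38% with a negative difference). In that test 2 of 44 collagen genes had an unadjusted p under 0.05, against 22.2% of all genes. The lowest adjusted p was 0.128, for Col18a1. Among the pathway lists, the same test called 6 genes, Ogn, Lama2, Lama5, Lamc1, Tgfbr3 and Ltbp1, against the same 7.2%. Between lard-fed conventional and germ-free mice 4 of 15 TGF-beta signalling genes were lower and 0 higher in conventional mice, against 7.48% and 8.77% of all genes, and 0 were called with germ-free mice 2, 4 and 5 on lard left out, against 0.888%. The 4 differed as follows: Tgfbr1 by -0.64 ± 0.17 (limma adjusted p = 0.00984), Ccn2 by -0.59, Tgfbr3 by -0.26 and Smad4 by -0.17, and Lox was lower by -0.35. In fish oil-fed mice Ccn2, a matrix protein induced by TGF-beta, differed by -0.94 and Ctsk by -1.32 ± 0.33 (adjusted p = 0.00977).

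Lard-fed conventional mice 5 and 6 bear on these results too. Col1a1 was at 11.51 and 11.42 in them and at 10.28 to 10.66 in mice 1 to 4, and Col1a2 was at 11.00 and 11.03 against 9.77 to 10.31. Their adipocyte marker means were 12.18 and 12.11 against 12.55 to 12.60. Without them 4 collagen genes were lower in lard-fed conventional than germ-free mice and 0 higher, against 12.6% and 12.9% of all genes. Col1a1 then differed by -0.66 (limma adjusted p = 8.25e-05), Col1a2 by -0.82 (adjusted p = 1.36e-05), Col3a1 by -0.42 (adjusted p = 0.0154), and the fourth was Col6a6. The diet change then differed with bacterial status for 2 collagen genes, against 13.6% of all genes. Col1a1 differed by -0.46 (adjusted p = 0.0382) and Col1a2 by -0.65 (adjusted p = 0.00711). These 2 mice had the highest values of both genes in their group, so leaving them out lowers the mean and narrows the spread at once. The macrophage marker mean moved with the same mice, and its part in these values was not tested.

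**Figure D4:**
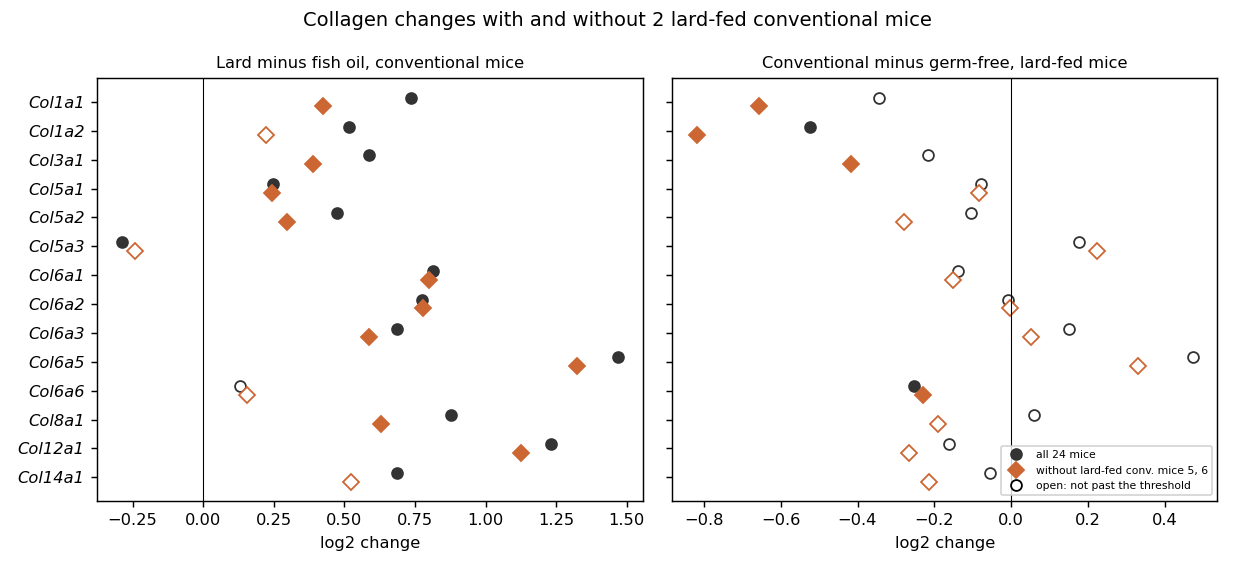
Log2 change of 14 collagen genes with all 24 mice (black circles) and without lard-fed conventional mice 5 and 6 (orange diamonds), for lard minus fish oil in conventional mice (left) and conventional minus germ-free in lard-fed mice (right). Open symbols did not pass an adjusted p of 0.05. Col1a2 moves from 0.52 to 0.22 on the left and from -0.52 to -0.82 on the right, while Col6a1 hardly moves.

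Pairs of chains were compared mouse by mouse after removing the group means, for 9 pairs over 24 mice. In 8 pairs both chains belong to 1 collagen type, and Col1a1 and Col3a1 belong to different types whose fibrils often form together. The p-values come from a permutation test of 100000 shuffles within groups, two-sided and adjusted over the 9 pairs by Benjamini-Hochberg. Col1a1 and Col1a2 went together most closely, with r = 0.957 and rho = 0.888 (permutation adjusted p = 3e-05 and 9e-05), r from 0.701 to 0.988 within the 4 groups, and r = 0.924 without the 2 mice farthest from the median of Col1a1. Col6a1 and Col6a2 had r = 0.906 and rho = 0.827 (permutation adjusted p = 3e-05 and 0.00021), with 0.821 without the 2 farthest mice. Within groups that r was 0.984 in fish oil-fed conventional mice and 0.189 in lard-fed germ-free mice, where Col6a1 and Col6a3 had -0.207 and Col6a2 and Col6a3 -0.538. Col4a1 and Col4a2 had r = 0.676 and rho = 0.657 (permutation adjusted p = 0.0011 and 0.0043), with 0.698 without the 2 farthest mice. Col5a1 and Col5a2 were the loosest pair, with r = 0.184 and rho = 0.231 (permutation adjusted p = 0.21 and 0.26), and r ran from -0.732 to 0.612 within groups. Of the remaining pairs, Col1a1 and Col3a1 had r = 0.867, Col6a1 and Col6a3 0.811, Col6a2 and Col6a3 0.796, Col4a3 and Col4a4 0.62 and Col4a5 and Col4a6 0.381 (permutation adjusted p = 3e-05, 0.0011, 0.0022, 0.004 and 0.12). Their rho was 0.795, 0.712, 0.703, 0.559 and 0.503 (permutation adjusted p = 9e-05, 0.0043, 0.0069, 0.013 and 0.022), and without the 2 farthest mice r was 0.849, 0.687, 0.692, 0.492 and 0.523. The smallest unadjusted p these permutations can give is 1e-05. Each r without the 2 farthest mice used deviations from the group means of all 24 mice. Those means still held the 2 mice left out. Chains measured on 1 array share its RNA and its scaling.

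**Figure D5:**
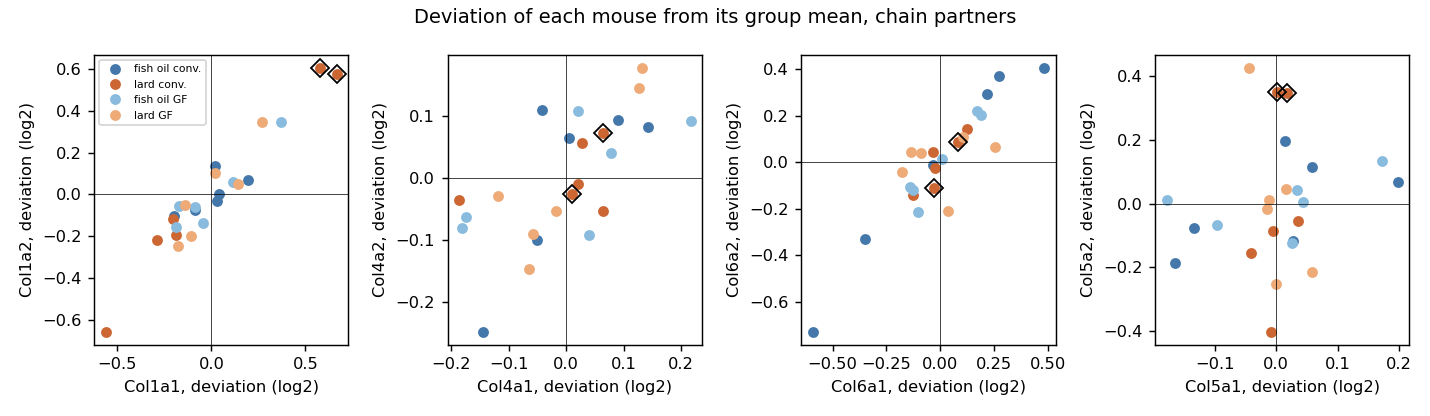
Deviation of each mouse from its group mean for 4 pairs of collagen chains, log2 on both axes with separate ranges, 1 point per mouse coloured by group, with diamonds around lard-fed conventional mice 5 and 6. The pairs Col1a1 with Col1a2 (r = 0.957) and Col6a1 with Col6a2 (r = 0.906) lie along a line, and Col5a1 with Col5a2 (r = 0.184) does not.

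Across the collagen genes, Col5a2 went with the mean of Col1a1, Col1a2 and Col3a1 from mouse to mouse (r = 0.86 over 24 mice, group means removed), while Col4a1 and Col4a2 had 0.25 and 0.09. With the mean of Col4a1 and Col4a2, Col5a1 had r = 0.60 and Col5a3 0.61, although Col5a1 rose and Col5a3 fell with lard. These correlations are descriptions over mice that share arrays within a gene pair. Outside the collagens, the genes most like the type I and III mean were Clcn7 (r = 0.904), Itgav, Siae, Kntc1, Agps, Osbpl3, Myo9b, Coro7, Slc25a13 and Ska3 (0.88). Without lard-fed conventional mice 5 and 6 their r lay between 0.698 and 0.798, and 3 of the 10, Kntc1, Agps and Siae, stayed among the 10 most alike. Most like the Col4a1 and Col4a2 mean were Trp53inp2 (r = 0.80), Prrc2b, Dvl1, Hspg2 (0.74), Vhl, Rhbdf1, Hip1, Slc1a4, Htra3 and Maneal (0.71), and 7 of these 10 stayed without the 2 mice. Hspg2 encodes perlecan, itself a basement membrane protein.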

How the data were processed

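Epididymal fat RNA of 24 mice was measured on one-colour Affymetrix whole-transcript arrays. The deposited values are log2 signals made by the authors with RMA, per the submitters' processing notes. Its version, the scan dates, the cages and the colony were not given in the sources used here. Of 35556 probe sets, 21789 had 1 symbol, 1621 several and 12146 none, and 21698 of those with 1 symbol matched RefSeq by Entrez number. The members and gene lists were chosen with earlier results of these data known. Limma 3.58.1 (R 4.3.3) was fitted to 4 group means on 19938 genes, two-sided with Benjamini-Hochberg adjustment over all of them and a threshold of 0.05. It was tested on simulated data. Text values are for collagen genes, up to 6 per class and comparison in full, and for up to 4 other genes per list and comparison with the largest changes past the threshold, with their value in the other diet comparison; Serpinh1, P4ha1, P4ha2, P4ha3 and Ctsk in germ-free mice were named after their values were seen. Scaling, filters, probe set choice, array weights, priors, a replicate block and single mice left out were alternatives. Likeness without 2 mice and the chain pairs were added after seeing the data. Precision is limited by the number of arrays.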

Additional observations from a re-analysis of the deposited data

Results flagged for a closer look

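In 11 of 176 groups of 6 mice, 1 mouse stood apart from the nearest other for a collagen gene; chance alone sets apart about 1 in 20 groups. Lard-fed conventional mouse 1 was lowest for Col2a1 at 7.669 (nearest 7.841), Col9a1 at 6.126 (6.419), Col9a3 at 7.321 (7.832), Col25a1 at 6.545 (6.86) and Col27a1 at 7.424 (7.891). In the same group Col4a1 was 9.819 in mouse 4 (10.015) and Col14a1 was 10.449 in mouse 5 (9.828). Fish oil-fed conventional mouse 3 had Col9a2 at 7.543 (7.968). Lard-fed germ-free mouse 2 had Col23a1 at 7.604 (7.766) and Col26a1 at 7.383 (7.57), and mouse 6 had Col10a1 at 6.215 (6.049).

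For 6 matrix and signalling genes the lard against fish oil change in conventional mice minus that in germ-free mice passed limma's interaction test. Of all genes 7.2% passed it. It called 0 of 22 biosynthesis, 7 procollagen processing, 6 crosslinking, 9 receptor and 8 degradation genes. The differences were -0.50 for Ogn (adjusted p = 0.0314), -0.56 for Lama2 (adjusted p = 0.0133), 0.42 for Lama5 (adjusted p = 0.0477), -0.33 for Lamc1 (adjusted p = 0.023), -0.33 for Tgfbr3 (adjusted p = 0.0308) and -0.40 for Ltbp1 (adjusted p = 0.0477).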

How the results depend on the processing

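Of the collagen counts, those requiring at least a 1.5-fold change were 9 in conventional mice, 10 in germ-free mice and 0 between lard-fed groups. The shares of all genes were 8.16%, 9.96% and 1.47%. With germ-free mice 2, 4 and 5 on lard left out, the lard against fish oil count in germ-free mice was 11 and that between lard-fed groups 0. Of all genes 26.5% and 0.888% were called in these fits. The count between lard-fed groups was 1 with the mean of probe sets, 1 with only the groups compared and 4 without lard-fed conventional mice 5 and 6. The shares of all genes were 16%, 11% and 25.5%. Between fish oil-fed groups the count was 1 with repeated quantile normalization, 1 with the low-value filter, 1 with array weights and 2 with the liver covariate. The shares of all genes were 12.8%, 20.6%, 16.7% and 8.08%. The count for the diet change differing with bacterial status was 1 with array weights, 2 without lard-fed conventional mice 5 and 6 and 1 with the liver covariate. The shares of all genes were 12.7%, 13.6% and 10.7%. Leaving out 1 mouse at a time gave 17 to 18, 16 to 21, 1 to 3, 0 to 2 and 0 in the order conventional diet, germ-free diet, lard-fed status, fish oil-fed status and interaction. In the same order 26.7% to 33.5%, 40.5% to 49%, 11.3% to 21.6%, 8.83% to 13.8% and 4.32% to 10.4% of all genes were called. The cause was not tested. With the replicate number as a block the counts were 18, 18, 2, 0 and 0, against 30.2%, 46.4%, 14.9%, 11.5% and 5.67% of all genes. No label says that the numbers pair mice. Of 36 same-number pairs 9 correlated above 0.1 (range -0.4969 to 0.3512). Pairs of unlike number were not set beside them, so these values cannot decide whether the numbers pair mice. No collagen gene called with all mice changed sign in these fits, but the balance of calls did. With the liver covariate the germ-free diet count was 5 higher and 8 lower, against 13% and 16.4% of all genes. Of these 13, 8 were shared with the 14 higher and 5 lower. Without lard-fed conventional mouse 1 the count between lard-fed groups was 1 higher and 1 lower in place of 0 and 2. The shares of all genes were then 7.45% and 7.11%.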
